A study of Rattus norvegicus with 36 samples.

Results

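The insulin-like growth factor (IGF) system was followed in 2 gut tissues, ileum and colon, of UCD-T2DM males through 10 genes chosen by name from the 24773 genes of the deposited count table. They are the ligands *Igf1* and *Igf2*, the receptors *Igf1r* and *Igf2r*, and the binding proteins *Igfbp2*, *Igfbp3*, *Igfbp4*, *Igfbp5*, *Igfbp6* and *Igfbp7*. All 10 had counts in all 36 libraries and passed the filter on low counts in both tissues. UCD-T2DM rats develop type 2 diabetes spontaneously, from many genes.

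RNA of whole distal ileum and proximal colon was sequenced from 18 rats, 6 in each of 3 groups, so that each rat gave 1 library per tissue. D3M rats had untreated diabetes for 88 to 116 days (median 101) and were 172 to 173 days old. D1M rats were recently diagnosed, with 22 to 23 days of diabetes, and were 168 to 172 days old. ND rats were UCD-T2DM rats without diabetes and all were 70 days old. Because ND rats were younger than both other groups, age and diabetes cannot be told apart in any comparison with them. D3M and D1M rats were close in age and differed in the age at which diabetes began. They also differed in body weight, 472 to 575 g in D3M and 597 to 663 g in D1M rats. Fasting glucose was 165 to 330.6 mg/dl in D3M and 93.6 to 178.6 mg/dl in D1M rats. The tissue was the whole gut wall, and in such bulk RNA fewer cells of a type and less RNA per cell cannot be told apart.

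IGF1 and IGF2 are small secreted growth factors that signal through IGF1R, a tyrosine kinase receptor related to the insulin receptor. IGF2R, the cation-independent mannose 6-phosphate receptor, has no kinase: it carries lysosomal enzymes to the lysosome and takes up IGF2 for degradation. The binding proteins hold IGFs in blood and tissue and set how much ligand reaches the receptor. In the gut, IGFs come largely from mesenchymal cells and from blood, and act on the epithelium and the smooth muscle.

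In rn6, the build of the deposited table, *Igf1* (ENSRNOG00000004517) lies on chromosome 7 from 28412198 to 28486609 and *Igf2* (ENSRNOG00000020369) on chromosome 1 from 215828102 to 215846911. *Igf1r* (ENSRNOG00000014187) spans 128924966 to 129206516 and *Igf2r* (ENSRNOG00000014997) 48176106 to 48264477 of chromosome 1. *Igfbp2* (ENSRNOG00000016957) and *Igfbp5* (ENSRNOG00000017206) are neighbours on chromosome 9, at 80118029 to 80144789 and 80150211 to 80167033, on opposite strands with 5421 bases between them. *Igfbp3* (ENSRNOG00000061910) lies on chromosome 14 from 87457647 to 87465374, 3861 bases from *Igfbp1*. *Igfbp4* (ENSRNOG00000010635) lies on chromosome 10 from 86950557 to 86962578, *Igfbp6* (ENSRNOG00000010977) on chromosome 7 from 143749221 to 143754054 and *Igfbp7* (ENSRNOG00000002050) on chromosome 14 from 33010300 to 33070190. Of the 10, *Igfbp7* alone overlaps other genes of the table, LOC103693375 and *Polr2b*, on the opposite strand. Its counts are uncertain to that extent, since no source used here gives the strand setting of the counting.

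Promoter sequences are shown for the 3 genes on which the results turn, *Igf2r* and *Igfbp3*, which differed between groups, and *Igfbp2*, which differed most between the tissues. Each is the run of 250 bases before the annotated start, 5′ to 3′ on the strand of the gene, from RefSeq on build GRCr8. Capitals mark 3 kinds of motif, none overlapping another. The E-box core was searched as CACGTG, which covers both strands. The box at which transcription factor IID binds was searched as TATAAA and also as TATATA, on the gene's strand alone. The GC box was searched on both strands, as GGGCGG and as its complement CCGCCC.
Igf2r, chr1:50526628-50526877, plus strand: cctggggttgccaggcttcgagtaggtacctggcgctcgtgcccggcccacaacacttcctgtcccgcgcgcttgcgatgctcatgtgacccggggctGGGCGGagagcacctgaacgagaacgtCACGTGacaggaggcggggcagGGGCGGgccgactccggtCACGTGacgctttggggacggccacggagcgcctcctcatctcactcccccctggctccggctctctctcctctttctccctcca
Igfbp3, chr14:86277945-86278194, minus strand: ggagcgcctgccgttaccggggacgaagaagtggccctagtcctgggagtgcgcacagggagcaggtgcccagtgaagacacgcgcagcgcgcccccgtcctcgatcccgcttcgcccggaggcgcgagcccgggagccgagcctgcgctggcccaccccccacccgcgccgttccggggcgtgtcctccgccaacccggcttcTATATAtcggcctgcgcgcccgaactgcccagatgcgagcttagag
Igfbp2, chr9:81864561-81864810, plus strand: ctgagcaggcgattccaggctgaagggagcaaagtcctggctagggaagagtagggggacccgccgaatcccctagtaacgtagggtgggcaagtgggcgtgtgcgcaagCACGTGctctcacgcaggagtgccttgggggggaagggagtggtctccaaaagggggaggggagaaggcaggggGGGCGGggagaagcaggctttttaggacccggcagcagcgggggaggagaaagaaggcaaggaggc

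*Igf2r* held 2 copies of CACGTG, which reads the same on both strands, starting 125 and 85 bases before the start, and 2 GC boxes. At least 2 copies of CACGTG were found in 144 of 33469 promoters of this length (0.43%) and at least 1 in 5.59%. *Igfbp2* and *Igf1r* had 1 copy each, and the other members none. *Igfbp3* held TATATA 46 bases before its start and *Igfbp4* a match to this box 40 bases before its start, against 12% of all promoters with at least 1. All 10 members had an entry, *Igf2* with 2 starts. At least 1 GC box was found in 30.5% of all promoters and at least 2 in 14.8%. These matches describe letters and were not tested as binding sites.

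Library totals ranged from 12279059 to 21510043 counts in ileum and from 10024041 to 18299050 in colon. *Igf1r* was the member with the fewest counts, 8 to 47 per library, so that its values carry the largest counting error. *Igf1* had 20 to 151 counts and *Igf2* 62 to 275, while *Igf2r*, *Igfbp3*, *Igfbp4*, *Igfbp5* and *Igfbp7* had 445 or more in every library. The labelled tissues were checked against *Fabp6*, the ileal bile acid binding protein, and *Car1*, a carbonic anhydrase of colon epithelium. *Fabp6* reached 8710 CPM in the colon of ND rat K4028, where no other colon exceeded 21.3 CPM. *Car1* reached 3620 CPM in the ileum of ND rat K4040, 1340 CPM in that of D3M rat P762 and 2.41 to 130 CPM in the other 16. Flow cells, 3 in all, were spread unevenly over the groups and entered every model.

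Levels below are CPM, a count divided by library size and put on a common scale, with TMM-normalized library sizes within the tissue. Log2 fold changes, as the first group over the second, come from edgeR's quasi-likelihood test with their standard error (SE), and a transcript was called at a Benjamini-Hochberg adjusted p (FDR) under 0.05 over all transcripts of the tissue.

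In ileum, D3M rats had more *Igf2r* and less *Igfbp3* than ND rats. These were the only 2 of the 10 members called, 1 higher and 1 lower, where 12.5% of all 13026 transcripts were called, 8.31% as higher and 4.22% as lower. The median log2 fold change of the members was -0.40, with 7 of 10 below 0, and that of all transcripts was -0.08.

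*Igf2r* stood at 148 CPM in the lowest, a median of 193 and 240 in the highest D3M ileum, against 111, 123 and 160 in ND ileum. Means were 192 ± 35.1 CPM in D3M and 126 ± 18.1 CPM in ND rats (SD, n = 6 each). The ranges overlapped through D3M rats P762 and K3959 and through ND rat K4040. K4040 and P762 have the 2 ileum libraries with the highest *Car1*. The difference was 1.44-fold (log2 fold change 0.52, SE 0.16, 95% interval 0.18 to 0.87, edgeR FDR 0.045).

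*Igf2r* in D1M ileum was at 91.2 CPM in the lowest, a median of 135 and 155 in the highest rat, a mean of 127 ± 23.1 (SD, n = 6). Set against D1M rather than ND rats, D3M ileum was 1.47-fold higher (log2 fold change 0.56, SE 0.14, 95% interval 0.26 to 0.86, edgeR FDR 0.049). That was 1 member higher and 0 lower of 10, where 2.22% of all transcripts were called between D3M and D1M ileum, 1.93% as higher. D1M and ND rats differed by -0.04 (95% interval -0.35 to 0.27).

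Both *Igf2r* calls lay close to the threshold. Over the omission of each library in turn, the log2 fold change of D3M over ND rats was 0.45 to 0.66 with an FDR of 0.0235 to 0.142. It was called in 5 of 18 such fits, those without ND rat K4040, D1M rats K3978 and K3988, or D3M rats K3959 and P762, and not in the other 13. For D3M over D1M rats the range was 0.48 to 0.64, and 6 of 18 fits called it (FDR 0.0186 to 0.131), those without ND rats K4040, K4047 and K4048, D1M rat K3986, or D3M rats K3959 and P762. Within flow cell 1 the mean was 200 CPM in 4 D3M and 123 CPM in 1 ND library, and within flow cell 3 it was 175 CPM in 2 D3M and 142 CPM in 2 ND libraries. No D3M ileum was in flow cell 2, and without that flow cell the log2 fold change over ND rats was 0.48 (FDR 0.159). Of 15 other settings, in which the fit without K4040 recurs, 7 lost the call over ND rats, among them the 2 groups alone (FDR 0.146) and a B cell score as covariate (0.51, FDR 0.0541). With the ileum of both K4040 and P762 left out, chosen after seeing the data, it was 0.74 (FDR 0.0205).

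*Igfbp3*, the main carrier of IGFs in blood, was the other called member. It stood at 42.9 CPM in the lowest, a median of 96.9 and 146 in the highest D3M ileum, against 153, 210 and 242 in ND ileum. Every D3M library lay below every ND library, but how many of all transcripts separate the groups in this way was not counted. The mean of 95.8 ± 33.8 CPM in D3M rats, against 200 ± 35 CPM in ND rats (SD, n = 6 each), gave a log2 fold change of -1.06 (SE 0.28, 95% interval -1.65 to -0.47, edgeR FDR 0.0226).

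D1M ileum held *Igfbp3* at 111, 151 and 240 CPM (lowest, median and highest), overlapping both other groups. The log2 fold change of D3M over D1M rats was -0.75 (SE 0.24, edgeR FDR 0.109). DESeq2 and voom with quality weights called that difference, at -0.73 (FDR 0.0341) and -0.76 (FDR 0.0436). D1M differed from ND ileum by -0.31 (SE 0.26, FDR 0.8).

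The call between D3M and ND ileum was kept in 15 of 18 fits with a library left out (log2 fold change -1.30 to -0.81) and lost without ND rat K4040 (FDR 0.0547), ND rat K4048 (FDR 0.0711) or D1M rat K3986 (FDR 0.0593). Of 15 other settings 5 lost it, among them the fit without K4040 again, no flow cell 2 (-0.99, FDR 0.0803) and the 2 groups alone (-1.09, FDR 0.0897). With both K4040 and P762 left out it was -1.26 (FDR 0.0283). Within flow cell 1, *Igfbp3* averaged 96.4 CPM in 4 D3M libraries and 222 CPM in 1 ND library, and within flow cell 3 94.6 CPM in 2 D3M and 188 CPM in 2 ND libraries. The lower level in D3M rats was seen in both flow cells that held the 2 groups.

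**Figure D1:**
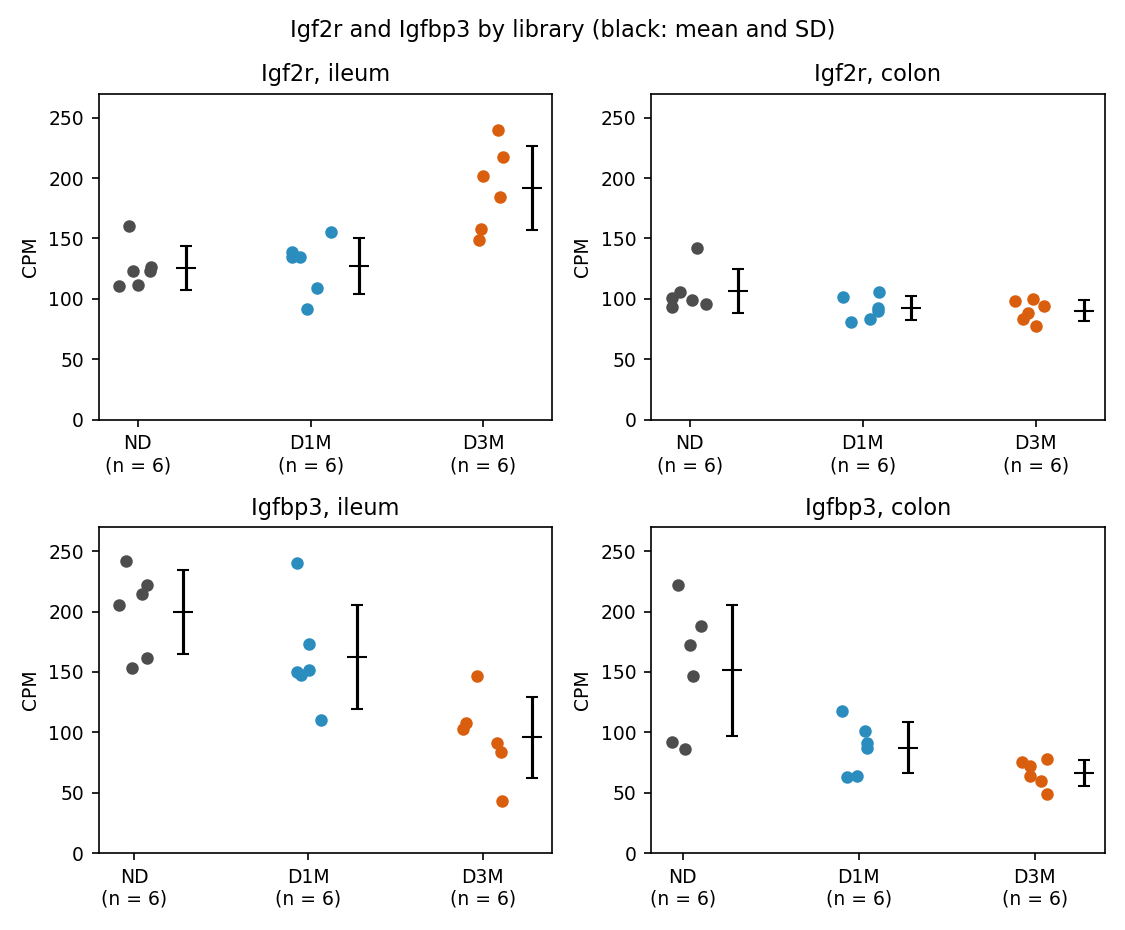
CPM of *Igf2r* (top) and *Igfbp3* (bottom) in ileum (left) and colon (right), 1 point per library, by stage from ND through D1M to D3M, with the mean and SD of 6 rats in black. *Igf2r* was higher in D3M ileum (mean 192 CPM) than in ND ileum (126 CPM) but not in D3M colon (90.3 CPM) against ND colon (106 CPM), while *Igfbp3* of D3M rats lay below that of ND rats in both tissues.

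The other 8 members did not pass between D3M and ND ileum. *Igf1*, made in the gut largely by mesenchymal cells, was at 1.23 to 3.05 CPM (median 1.75) in D3M and 2.64 to 4.05 CPM (median 2.93) in ND ileum, with a log2 fold change of -0.75 (SE 0.31, FDR 0.118). In D1M ileum it was at 1.36 to 3.33 CPM (median 1.81), -0.68 relative to ND (SE 0.29, FDR 0.562). This gene rests on 20 to 84 counts per ileum library. Without the flow cell term it was called in D3M over ND rats (-0.73, FDR 0.0481).

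*Igf2*, the ligand that IGF2R clears, was at 4.29 to 13.3 CPM (median 9.73) in D3M, against 5.65 to 10.3 CPM (median 8.58) in ND ileum (log2 fold change 0.15, SE 0.27). *Igf1r* was at 0.521 to 1.11 CPM in D3M and 0.903 to 1.76 CPM in ND ileum (-0.48, SE 0.27, FDR 0.242). Neither the ligands nor the signalling receptor passed in the tissue in which *Igf2r* did.

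Among the remaining binding proteins, *Igfbp4*, which inhibits IGF action, differed by -0.13 (SE 0.21), and *Igfbp5*, a binding protein of muscle and matrix, by -0.65 (SE 0.43) between D3M and ND ileum. *Igfbp7*, which binds IGFs weakly, differed by -0.31 (SE 0.20). Between D3M and D1M ileum, *Igfbp4* was at 43.1 to 97.1 CPM in D3M and 76.4 to 109 CPM in D1M rats (-0.45, SE 0.19, FDR 0.197), and *Igfbp7* at 65.8 to 106 CPM in D3M and 90.4 to 154 CPM in D1M rats (-0.48, SE 0.17, FDR 0.14). Both pairs of ranges overlapped.

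*Igfbp2* and *Igfbp6* in ileum each turned on 1 or 2 libraries. *Igfbp2* was at 20.8 CPM in ND rat K4040, the ileum with the highest *Car1*, and at 1.43 to 3.62 CPM in the other ND rats. D3M rat P780 had 7.02 CPM, against 0.801 to 2.42 CPM in the other D3M rats. P762 ileum had 1340 CPM of *Car1* and 1.69 CPM of *Igfbp2*, and P780 ileum 130 CPM of *Car1*. *Car1* is 1 of 4 listed colonic markers, of which 2 passed the filter in ileum. The mean log2 CPM of these 2 was 10.29 in K4040, 6.67 in P762 and 4.85 in P780 ileum. The part of colonic RNA in the *Igfbp2* values was not tested. The log2 fold change of *Igfbp2* in D3M over ND rats was -1.31 (SE 0.63, FDR 0.178), -0.12 (FDR 0.908) without K4040 and -1.98 (FDR 0.0881) without P780.

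*Igfbp6*, which binds IGF2 in preference to IGF1, was at 35.1 CPM in D3M rat P780, against 4.71 to 7.95 CPM in the other D3M rats and 8.43 to 10.5 CPM in ND rats. With P780 the log2 fold change of D3M over ND rats was 0.01 (SE 0.46, FDR 0.992). Without P780 it was -0.78 and was called (edgeR FDR 0.0402), and for D3M over D1M rats it was -0.58 (FDR 0.133). P780 also had the highest *Igfbp6* in colon, 41 CPM, where the other D3M colons had 14.1 to 27.0 CPM.

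The ileum library of P780 stood apart in *Msln*, 1 of 4 listed markers of mesothelium, the outer lining of the gut wall. It was at 15.6 CPM there and at 0 to 2.18 CPM in the other 17 ileum libraries, and *Upk3b* and *Wt1*, at 0.78 CPM each, were likewise at their highest. The fourth marker, *Krt7*, was at its lowest there, 33.9 CPM, against 37.6 to 71.1 CPM in the other 17. P780 also had the highest sum of smooth muscle markers of the 18 ileum libraries, 8829 CPM, and the lowest sum of macrophage markers, 175.7 CPM. The 2 markers that passed the filter, *Msln* and *Krt7*, summed to 37.8 to 62.1 CPM in D3M, 43.8 to 63.1 CPM in D1M and 44.6 to 71.5 CPM in ND ileum. The part of these cells in the *Igfbp6* value was not tested.

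**Figure D2:**
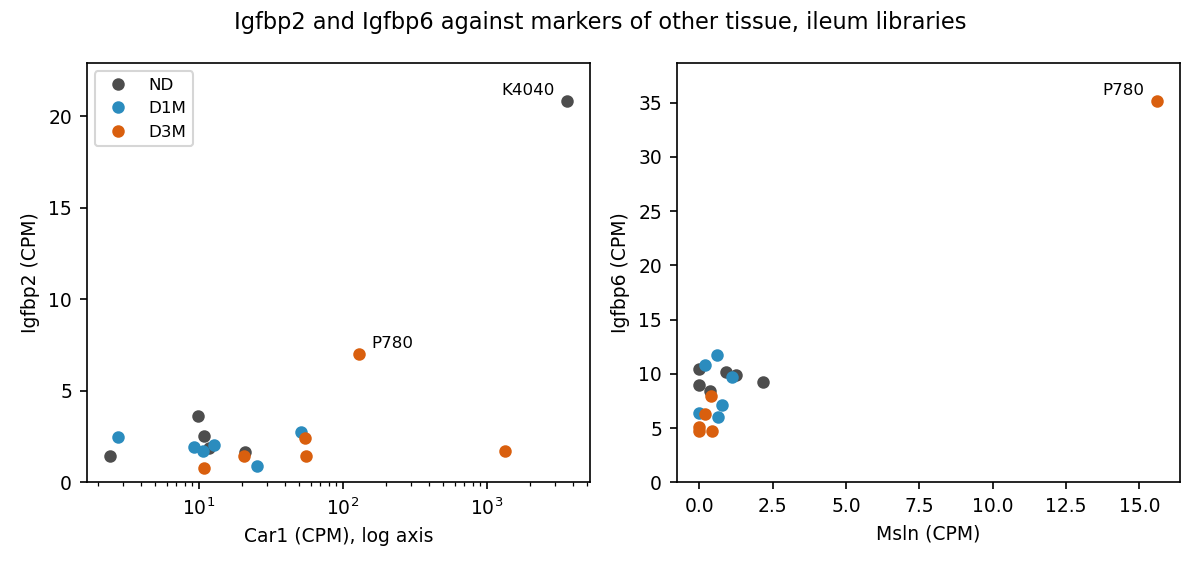
Ileum libraries, 1 point each, with *Igfbp2* (CPM) against *Car1* (CPM, log axis) on the left and *Igfbp6* (CPM) against *Msln* (CPM) on the right. ND rat K4040 lies apart at 20.8 CPM of *Igfbp2* and 3620 CPM of *Car1*, and D3M rat P780 at 35.1 CPM of *Igfbp6* and 15.6 CPM of *Msln*.

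Between D1M and ND ileum 0 of 10 members were called, where 0.0154% of all transcripts were called, 0.00768% in each direction. At an unadjusted p under 0.05 edgeR gave 1 member, *Igf1*, where it gave 1087 of all 13026 transcripts. DESeq2 and voom called 0 members. The median log2 fold change of all transcripts was -0.03.

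In colon 0 of 10 members were called between D3M and ND rats, where 0.0155% of all 12906 transcripts were called, which is 2 transcripts. *Igfbp3*, *Igfbp4* and *Igf2* were the 3 members with an unadjusted p under 0.05 in edgeR, where 1292 of all 12906 transcripts had one. DESeq2 called 1, *Igfbp3*, and voom 0. All 10 log2 fold changes were below 0, with a median of -0.23 against -0.01 for all transcripts. Without the flow cell term, or with the D3M and ND libraries alone, 8 of 10 were below 0, and with fibroblast and smooth muscle scores as covariates 6 of 10.

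*Igfbp3* was again the member with the smallest p. It was at 49 CPM in the lowest, a median of 68.1 and 77.7 in the highest D3M colon, against 86.4, 160 and 222 in ND colon. Every D3M library thus lay below every ND library, a separation not counted over all transcripts. The log2 fold change was -1.20 (SE 0.23, 95% interval -1.69 to -0.70) with an edgeR FDR of 0.141, and the p ranked 8 among the 12906 transcripts. D1M colon was at 63.5, 89 and 118 CPM (lowest, median and highest), -0.74 relative to ND (SE 0.23, FDR 0.952).

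The FDR of *Igfbp3* fell on either side of the threshold with the model. DESeq2 gave -1.20 with an FDR of 0.00141, the fit of the D3M and ND libraries alone -1.42 with an FDR of 0.00159, and the fit without the colon of D1M rat K3989 -1.25 with an FDR of 0.0465. In the other 17 fits with a library left out it was not called (FDR up to 0.453), and without the colon of ND rat K4028, the one with the highest *Fabp6*, it was -1.08 (FDR 0.343). Within flow cell 2 the mean was 64.6 CPM in 4 D3M and 160 CPM in 2 ND libraries, and within flow cell 3 69.7 CPM in 2 D3M and 205 CPM in 2 ND libraries. The 2 ND colons of flow cell 1, which held no D3M colon, averaged 89.2 CPM.

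*Igfbp4* in colon was at 63.8 to 103 CPM (median 74) in D3M and 89.6 to 124 CPM (median 100) in ND rats, with a log2 fold change of -0.37 (SE 0.11, FDR 0.302). *Igf2* was at 5.62 to 9.3 CPM in D3M and 6.64 to 12.7 CPM in ND colon (-0.41, SE 0.18, FDR 0.461). *Igf2r*, the gene higher in D3M ileum, was at 77.6 to 99.9 CPM in D3M and 93.5 to 142 CPM in ND colon (-0.19, SE 0.10, FDR 0.551).

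Between D1M and ND colon, and between D3M and D1M colon, 0 of 10 members and 0% of all transcripts were called. At an unadjusted p under 0.05 edgeR gave 2 members, *Igfbp3* and *Igfbp4*, in the first comparison and 0 in the second. Of all 12906 transcripts it gave 602 and 682. DESeq2 and voom called 0 members in both. *Igfbp3* of D3M over D1M colon was at -0.45 (SE 0.25, 95% interval -0.98 to 0.08). The estimates of *Igfbp2*, *Igfbp5*, *Igfbp6* and *Igfbp7* were within 0.25 of 0 on the log2 scale in all 3 colon comparisons. Their 95% intervals for D3M over ND colon were wider, -0.86 to 0.64 for *Igfbp2*, -0.32 to 0.26 for *Igfbp5*, -0.89 to 0.72 for *Igfbp6* and -0.39 to 0.23 for *Igfbp7*.

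**Figure D3:**
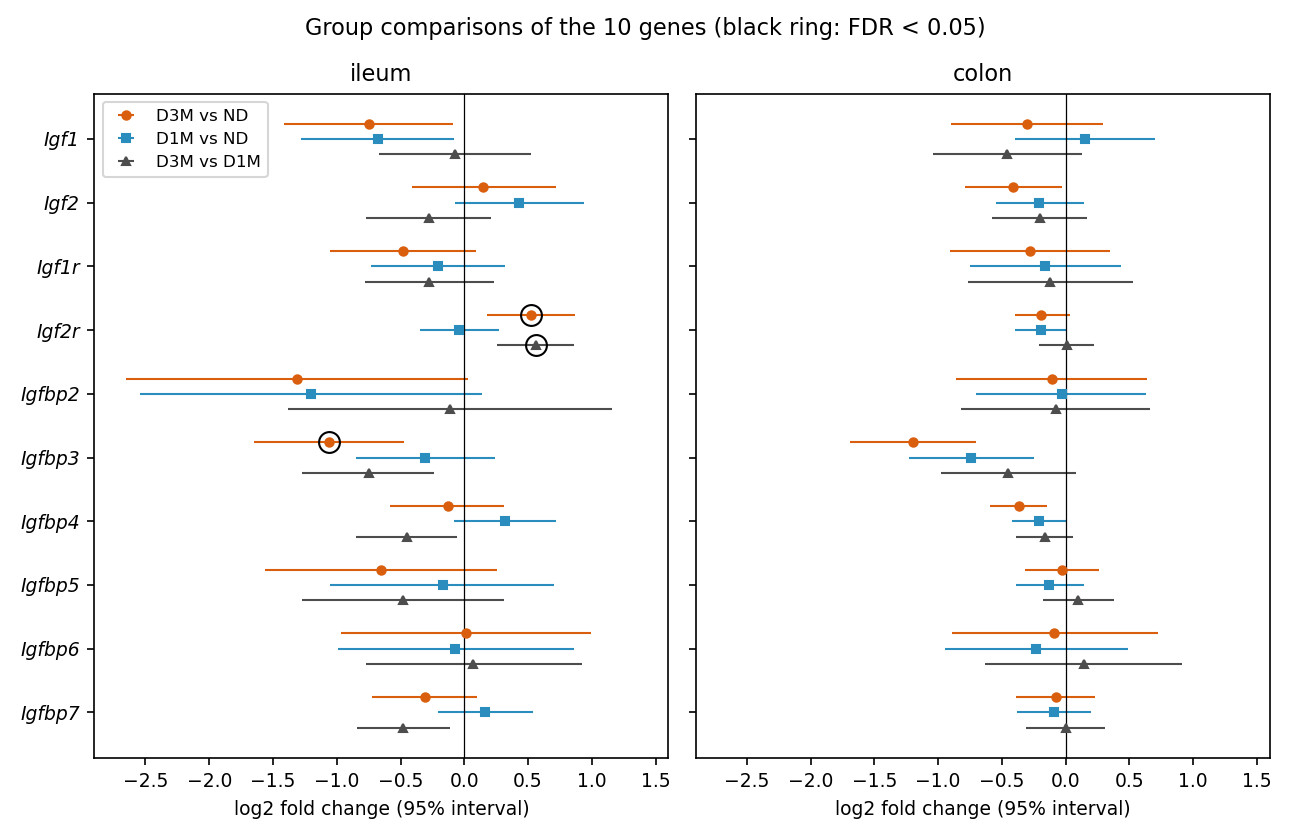
Log2 fold change with its 95% interval for the 10 genes in ileum (left) and colon (right), for the 3 pairs of groups, from the edgeR model of each tissue. The 3 ringed points are *Igf2r* at 0.52 and 0.56 and *Igfbp3* at -1.06, all in ileum.

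The ileal and colonic responses were set against each other in 1 model of all 36 libraries. For D3M vs ND, *Igf2r* differed between the tissues by 0.76 (ileum minus colon, SE 0.20, 95% interval 0.35 to 1.17, edgeR FDR 0.0463), and it was the 1 member of 10 called, where 1.56% of 13697 transcripts were called, 1.27% as higher. With the rat as a block, which takes account of the shared animals, the difference was 0.86 with an FDR of 0.149, and 0 of all transcripts were called. In fits with a library left out it was 0.65 to 0.90 (FDR 0.022 to 0.125). It was called in 12 of 36, those without the colon of ND rats K4037, K4038 or K4048 or of D1M rats K3978, K3986 or K3988, or without the ileum of ND rat K4040, D1M rats K3978, K3987 or K3988, or D3M rats K3959 or P762. The other 24 lost the call, and with K4028 colon and K4040 ileum left out it was 0.79 (FDR 0.0614). With P762 ileum left out as well it was 0.85 (FDR 0.0433).

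*Igfbp3*, at -1.06 in ileum and -1.20 in colon, gave a difference of 0.18 (95% interval -0.58 to 0.95). The interval leaves room for differences of either sign. For D1M vs ND and for D3M vs D1M, 0 of 10 members and 0% of all transcripts were called, and 0 members by DESeq2 or voom. At an unadjusted p under 0.05 edgeR gave 3 members (*Igf1*, *Igf2* and *Igfbp4*) for D1M vs ND, where 775 of 13697 transcripts passed. For D3M vs D1M it gave 1 member (*Igf2r*, 0.60, SE 0.19, FDR 0.369), where 1138 transcripts passed.

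Markers of the cells of the gut wall moved beside these results. In D3M against ND ileum, of 9 measured fibroblast markers 3 were lower (*Col1a1* -0.92, *Dpt* -0.96, *Mfap5* -1.46), 1 was higher (*Fbln1* 0.40) and 5 did not pass, with a median of -0.75. Their summed level was 583 to 821 CPM in D3M, against 663 to 1190 CPM in ND ileum. In colon 2 of 9 were lower (*Col1a1* -1 and *Col3a1* -0.96), with sums of 670 to 1130 CPM in D3M and 1080 to 2090 CPM in ND rats. These 2 collagens are the 2 transcripts called in colon.

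With fibroblast and smooth muscle scores as covariates, the log2 fold change of *Igfbp3* was -0.60 in ileum (FDR 0.244) and -0.76 in colon (FDR 0.998), and that of *Igf1* in ileum was -0.14 (FDR 0.782). The fibroblast score comes from the same libraries and holds markers called in the same comparisons. The part of fibroblasts and smooth muscle in these values was not tested. The 9 smooth muscle markers had a median log2 fold change of -0.22 in ileum and 0.21 in colon. Of 7 epithelial markers 3 were higher (*Vil1* 0.70, *Krt20* 0.58, *Cldn7* 0.49) and 1 lower (*Krt18* -0.66) in D3M against ND ileum, and summed to 21200 to 27600 CPM in D3M and 14800 to 20300 CPM in ND rats. Against D1M ileum 1 of the 7 was higher and 0 lower (median 0.25). Of 4 listed markers of ileum, *Fabp6* among them, 4 were higher in D3M than in ND ileum (median 0.82). Against D1M ileum 2 of these 4 were higher (median 0.56). Their part in the *Igf2r* value was not tested. With an epithelial score as covariate, chosen after seeing the data, *Igf2r* was at 0.53 and not called (FDR 0.172), and 196 rather than 1632 transcripts were called in all. This score holds markers called in the same comparison, and the part of epithelium in the *Igf2r* value was not tested.

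B cell and adipocyte markers also differed among the ileum libraries. The 9 B cell markers summed to 4.07 CPM in the lowest, a median of 10.3 and 295 in the highest D3M ileum, against 10.6, 232 and 877 CPM in ND ileum, with 7.96, 19 and 593 CPM in D1M ileum, and 0 of 9 were called. In the model with flow cell, 7 of the 9 lay above 0 in D3M over ND ileum (median log2 fold change 0.31). For D3M over D1M ileum 8 of 9 did (median 0.93). The 4 adipocyte markers that passed the filter summed to 55.5, 66.6 and 98.4 CPM in D3M, against 41.1, 154 and 208 CPM in ND ileum, with 66, 82.9 and 91.4 CPM in D1M ileum, and 1 of 4 was lower in D3M than in ND rats. With a B cell score as covariate *Igfbp3* was at -1.09 (FDR 0.0231), and the part of adipocytes in these values was not tested.

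**Figure D4:**
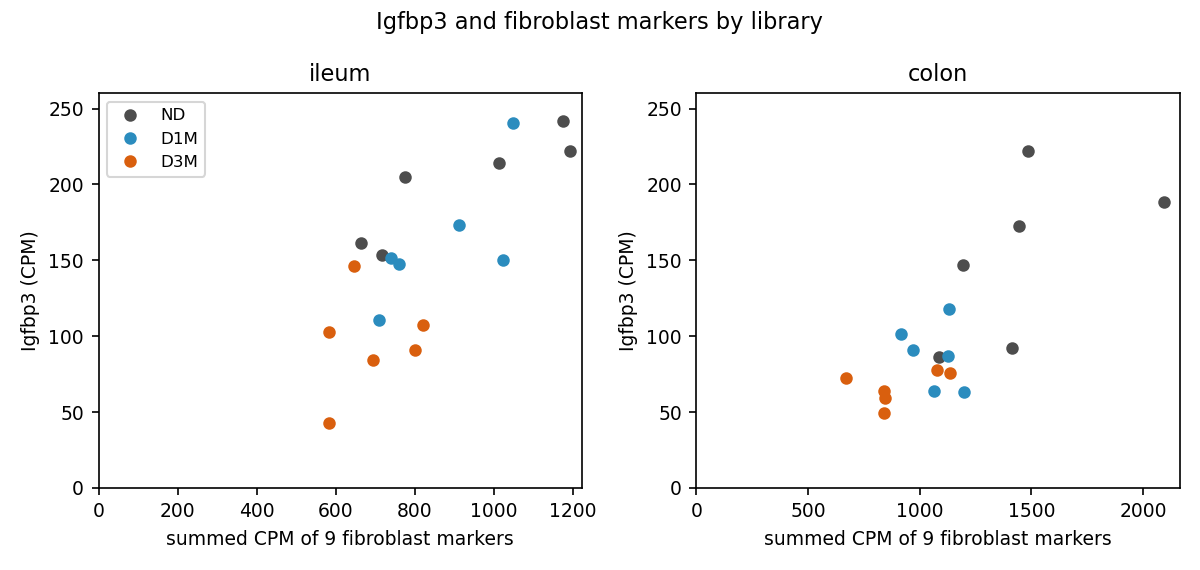
*Igfbp3* (CPM) against the summed CPM of 9 fibroblast markers, 1 point per library, in ileum (left) and colon (right), coloured by group. D3M ileum lies at 42.9 to 146 CPM of *Igfbp3* and 583 to 821 CPM of the markers, and ND ileum at 153 to 242 CPM and 663 to 1190 CPM.

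The genes most like the called members across the 18 ileum libraries were sought among 10868 transcripts by Pearson's r of log2 CPM, which also carries the group differences and anything the libraries share. For *Igf2r* they were *Slc19a1* (r = 0.94), the reduced folate carrier, *Dgat2* (0.93), an enzyme of triglyceride synthesis, *Fam102a* (0.93), the receptor kinase *Mertk* (0.93) and *Tnfrsf21* (0.91). For *Igfbp3* they were the adenylate cyclase *Adcy2* (0.87), *Dapk1* (0.85), and *Chga*, the chromogranin of endocrine cells, *Wnt2b* and *Procr* at 0.84 each. *Igf1* lay closest to *Wnt2b* (0.87), a Wnt ligand of gut mesenchyme, to ENSRNOG00000004101 (0.86), to *Col1a1* and *Pltp* (0.81 each) and to *Ltbp4* (0.80).

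In colon the transcripts most like *Igf1* among 11028 were *Rbp4* (0.76), *F3* and the lipoprotein lipase *Lpl* (0.73 each), and *C1qtnf1* and *G0s2* (0.71 each), of which several are known from adipose tissue. Among the members themselves, *Igf2* and *Igfbp4* had the highest r of the pairs in both tissues, 0.81 in ileum and 0.75 in colon. *Igf2r* and *Igfbp3* had an r of -0.76 in ileum and 0.64 in colon. Without K4028 colon and the ileum of K4040 and P762, the first pair had 0.86 in ileum and 0.76 in colon, and the second -0.82 in ileum and 0.46 in colon.

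The 2 tissues were also compared with each other. In a model of both tissues that held group and flow cell as covariates, 5 of 10 were higher and 3 lower in colon than in ileum, where 73.2% of all 13697 transcripts were called, 38.7% as higher and 34.5% as lower, so that the share of members was near that of all transcripts. Levels in the next sentences are CPM scaled over all 36 libraries together.

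*Igfbp2*, a binding protein that is abundant in fetal tissue, differed most. It was at 45.7 to 199 CPM (median 119) in colon, against 0.86 to 22.2 CPM (median 1.99) in ileum, and the ranges did not overlap. Colon was higher in 18 of 18 rats, by 5.03-fold in ND rat K4040, whose ileum had the 22.2 CPM, and 145-fold in the rat with the largest ratio, and the fitted difference was 35.8-fold (log2 fold change 5.16, SE 0.35, edgeR FDR 2.27e-14). Without K4028 colon and the ileum of K4040 and P762, *Igfbp2* reached 7.87 CPM in ileum, the smallest ratio over the 15 complete pairs was 17.8-fold and the fitted log2 fold change was 5.6 (FDR 1.04e-17). The neighbouring *Igfbp5* was at 57.9 to 108 CPM in colon and 34.9 to 143 CPM in ileum and did not pass (0.28, SE 0.17, FDR 0.129).

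*Igf1* was higher in the colon of 18 of 18 rats, at 3.34 to 10 CPM (median 5.7) in colon and 1.37 to 4.22 CPM (median 2.68) in ileum (log2 fold change 1.22, SE 0.16, edgeR FDR 3.87e-08). *Igf1r* differed in the same direction in 13 of 18 rats (0.43, SE 0.14, FDR 0.00859). *Igf2* was lower in the colon of 13 of 18 rats (-0.29, SE 0.13, FDR 0.0414). With the rat as a block *Igf2* was at -0.26 and not called (FDR 0.0902), and 15 of 36 fits with a library left out lost the call (FDR up to 0.0992).

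*Igf2r* and *Igfbp3* were lower in colon. *Igf2r* was at 74 to 134 CPM (median 90.5) in colon and 94.8 to 255 CPM (median 145) in ileum (-0.69, SE 0.09, edgeR FDR 1.88e-08). Colon exceeded ileum in 1 of 18 rats, ND rat K4028. *Igfbp3* was lower in the colon of 16 of 18 rats, at 46.7 to 209 CPM (median 81.7) in colon and 48.1 to 253 CPM (median 160) in ileum (-0.79, SE 0.14, FDR 7.23e-06).

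*Igfbp6* (0.85, SE 0.23, FDR 0.00116) and *Igfbp7* (0.62, SE 0.10, FDR 2.31e-06) were higher in the colon of 16 and 17 of 18 rats. *Igfbp4* was nearly level, at 60.5 to 115 CPM in colon and 48.3 to 113 CPM in ileum (0.03, 95% interval -0.16 to 0.23). Without flow cell 2 the calls of *Igf2*, *Igf1r* (0.35, FDR 0.14) and *Igfbp6* (0.60, FDR 0.0881) were lost, which left 5.

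**Figure D5:**
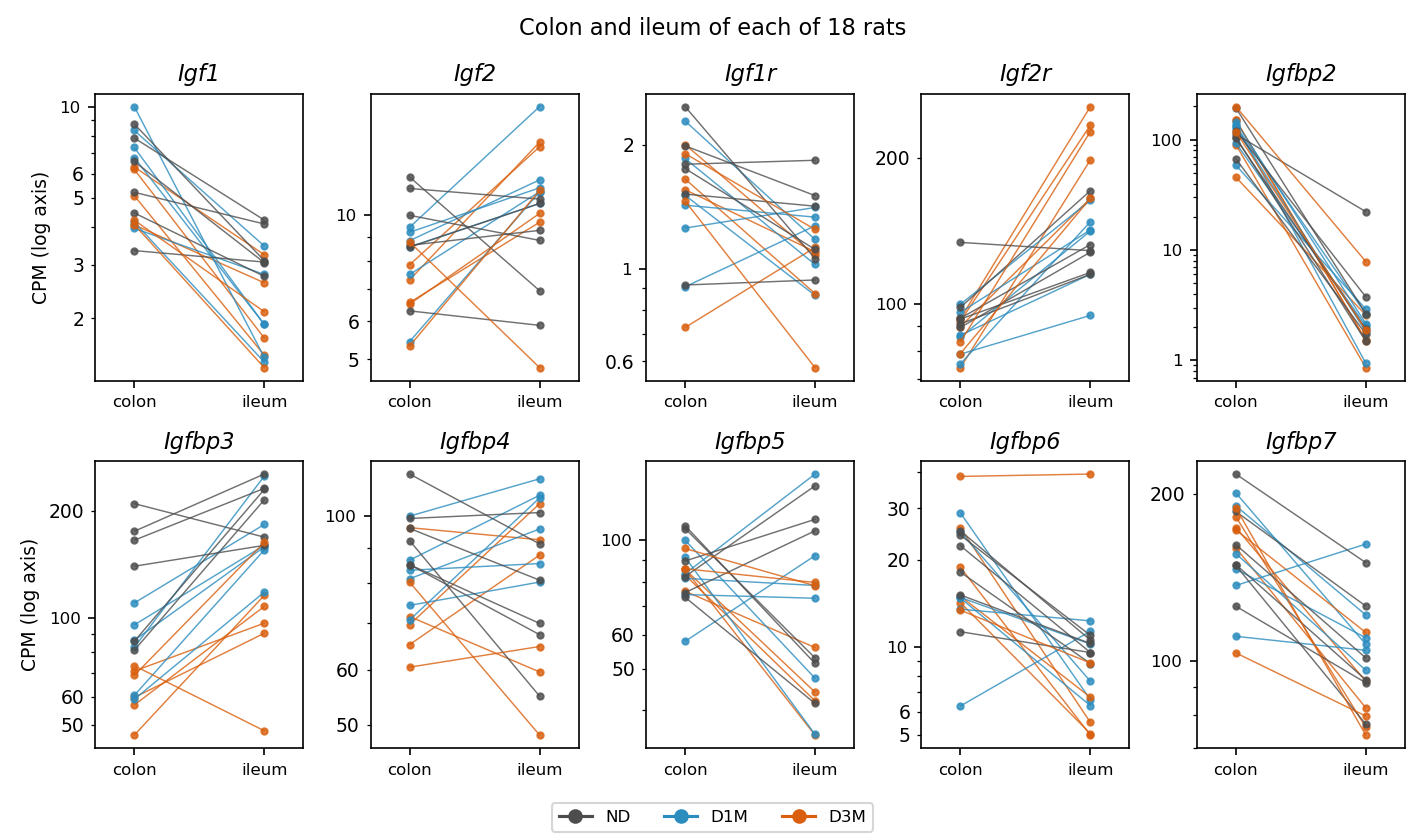
CPM of the 10 genes in colon and ileum of each of 18 rats, on log axes, with a line joining the 2 libraries of a rat and colours for ND, D1M and D3M. *Igfbp2* fills separate ranges (45.7 to 199 CPM in colon and 0.86 to 22.2 CPM in ileum), while the lines of *Igfbp4* run in both directions.

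A further 36 genes of the pathway, chosen by what they are known to do, gave 27 tested transcripts in ileum and 28 in colon. Between D3M and ND ileum 2 were higher, 1 lower and 24 did not pass, with a median of 0.10 against -0.08 for all transcripts, of which 12.5% were called. *Irs2*, an adaptor shared by the insulin and IGF1 receptors, was at 67.6 to 122 CPM in D3M and 55 to 69.1 CPM in ND ileum (log2 fold change 0.65, SE 0.14, FDR 0.00904). *Foxo3*, a transcription factor that AKT holds out of the nucleus, was at 5.23 to 10.4 CPM in D3M and 3.22 to 4.97 CPM in ND ileum (0.70, SE 0.21, FDR 0.0364). *Grb10*, an adaptor that dampens both receptors, was at 3.78 to 6.13 CPM in D3M and 4.59 to 9.05 CPM in ND ileum (-0.70, SE 0.21, FDR 0.0421).

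Between D3M and D1M ileum 2 of 27 were higher and 0 lower, where 1.93% of all transcripts were higher and 0.292% lower. *Irs2* was at 67.6 to 122 CPM in D3M and 44.7 to 66.7 CPM in D1M rats (0.62, SE 0.12, FDR 0.0244), and *Igf2bp2*, an RNA-binding protein named for its target *Igf2*, at 24.1 to 28 CPM in D3M and 16.8 to 21.8 CPM in D1M rats (0.46, SE 0.10, FDR 0.0321). Neither pair of ranges overlapped, a separation not counted over all transcripts. Between D1M and ND ileum, and in all 3 colon comparisons, edgeR called 0 of them. *Igfbp1*, the neighbour of *Igfbp3* and known in liver as a target that insulin represses, differed by -0.01 (SE 0.52) in ileum and 0.26 (SE 0.39) in colon between D3M and ND rats, on 10 to 86 counts per library in those groups. It was named after its values were seen.

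Between colon and ileum 11 of 29 tested pathway genes were higher, 15 lower and 3 did not pass, where 38.7% of all transcripts were higher and 34.5% lower. *Ghr*, the growth hormone receptor, stood lowest in p, at -2.01 (SE 0.10, edgeR FDR 3.56e-18). The adaptor *Shc1* (-0.48, SE 0.05), *Foxo3* (-0.98, SE 0.11) and *Jak2* (-0.43, SE 0.06), the kinase of the growth hormone receptor, were also lower in colon. *Akt1* (0.62, SE 0.04) and *Stc1* (1.89, SE 0.19), an inhibitor of the protease that cleaves IGFBP4, were higher in colon. *Irs2*, the adaptor higher in D3M ileum, was lower in colon than in ileum (-0.71, SE 0.11).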

How the data were processed

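Poly-A RNA of distal ileum and proximal colon was sequenced from stranded libraries on an Illumina NextSeq. Per the labels and the study's methods, the authors aligned reads to rn6 with STAR and counted reads per gene in SeqMonk. The deposited values used here are raw counts. The STAR version and the strand setting of the counting are not given in the sources used here. A deposited table of log2 scaled values of the same libraries was not used.

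Counts were filtered with filterByExpr, TMM-normalized and tested with the quasi-likelihood test of edgeR 4.0.16 (R 4.3.3), with all 18 libraries of a tissue and flow cell as covariate. The Benjamini-Hochberg adjustment covered all 13026 ileal, 12906 colonic or, over both tissues, 13697 transcripts, at an FDR of 0.05. SE was the log2 fold change divided by the root of F. DESeq2 1.42.0, voom with quality weights (limma 3.58.1), other scalings, filters, covariates and library omissions were alternatives. The test was also run on simulated counts, for D3M over ND within each tissue only and with libraries drawn independently. Its outcome is not given here and no result rests on it. Each library is from 1 rat and tissue, and the 2 libraries of a rat pair the tissues by animal: their deviations from group means had an r of -0.56 to 0.77 (median -0.02), over 0.1 in 7 of 18 rats.

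The 10 members, the pathway and marker lists and the alternatives were chosen with earlier results of these data known. All members are named. Pathway genes are named at an FDR under 0.05 and a mean log2 CPM of at least 1, at most 8 per comparison by p, of which 1 is not reported here, and likeness is given for the 5 transcripts with the highest r. Promoters were taken from RefSeq (GRCr8) by symbol, and no coordinates were converted between builds. Figures were drawn with matplotlib 3.10.9.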

Additional observations from a re-analysis of the deposited data

Results flagged for a closer look

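Of 60 sets of 6 libraries (10 genes, 2 tissues, 3 groups), 7 held a library that lay far from the other 5 by Dixon's ratio at its 95% critical value, where chance gives about 1 in 20. In ileum, *Igfbp6* of D3M rat P780 was at 35.1 CPM (others 4.71 to 7.95) and its *Igfbp2* at 7.02 CPM (others 0.801 to 2.42). ND rat K4040 had *Igfbp2* at 20.8 CPM (others 1.43 to 3.62) and *Igf2r* at 160 CPM (others 111 to 127) in ileum. *Igf2* was at 16.1 CPM in the ileum of D1M rat K3978 (others 9.89 to 11.2). In colon, *Igf2r* was at 142 CPM in ND rat K4028 (others 93.5 to 106), and *Igfbp7* at 109 CPM in D3M rat P762, the lowest of its group (others 167 to 200). K4040 has the ileum with the highest *Car1*, K4028 the colon with the highest *Fabp6* and P780 the ileum with the highest *Msln*.

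The change of *Igf2r* between D3M and ND rats differed between the tissues, by 0.76 (ileum minus colon, log2) in a test of the difference itself, with an edgeR FDR of 0.0463 that rose to 0.149 with the rat as a block.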

How the results depend on the processing

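Of the members' log2 fold changes over all alternatives, 3763 kept their side of the threshold, 98 lost the call and 8 gained it. Most of the 3763 were called neither in the main model nor under the alternative. Between D3M and ND ileum *Igf2r* lost its call in 7 of 15 settings and 13 of 18 omissions, and *Igfbp3* in 5 and 3. *Igf2r* lost it in 7 and 12 between D3M and D1M ileum. For the difference between tissues in D3M vs ND it did so in 7 of 12 and 24 of 36. The sign changed in 157 of 3870 values, of which 0 were called in the main model and 1 under the alternative, *Igfbp6* between D3M and ND ileum, at -0.78 without D3M rat P780, the low end of a range of -0.78 to 0.30 over omissions. With fibroblast and smooth muscle scores as covariates D3M over ND was 0.25 rather than -0.31 for ileal *Igfbp7*, 0.23 rather than -0.30 for colonic *Igf1* and 0.26 rather than -0.28 for colonic *Igf1r*. For *Igfbp2* the difference between tissues, ileum minus colon, was -1.21, and 0.06 without K4040 ileum, 0.18 without K4028 colon as well and 0.28 without P762 ileum too, an alternative chosen after seeing the data. Between D3M and ND ileum 2 members were called, and 1 with upper quartile scaling, without a filter, with a B cell score as covariate (each *Igfbp3*) or with K4040 ileum left out (*Igf2r*). The last is the same fit as the omission of K4040. Without flow cell 2, with the 2 groups alone, with fibroblast and smooth muscle scores, or with an epithelial score, chosen after seeing the data, 0 were called. Leaving out a library gave 0 to 2. Between D3M and D1M ileum, DESeq2 and voom called 2, and upper quartile scaling, no filter, no flow cell 2, the 2 groups alone and the B cell, fibroblast and smooth muscle, and epithelial scores 0, with 0 to 1 over omissions. Between D3M and ND colon, DESeq2 and the 2 groups alone called 1, with 0 to 1 over omissions. Between colon and ileum 5 were called without flow cell 2, and 7 to 9 over omissions, with the rat as a block 7. *Igf2* lost that call without the colon of ND rat K4038, D1M rats K3988, K3989 and K3990 or D3M rats K3959, K3961, K3980 and P762, or the ileum of ND rats K4037 and K4038, D1M rats K3978 and K3986 or D3M rats K3977, K3980 and P762. *Igfbp5* was called with voom (0.42, FDR 0.0206) and without the ileum of D1M rat K3989 (0.34, FDR 0.0444). For the difference between tissues in D3M vs ND, RLE or upper quartile scaling, no filter, a filter of 1 CPM in 6 libraries, no flow cell 2, no K4028 colon and K4040 ileum, and the rat block each gave 0, and omissions 0 to 1. For the other differences between tissues, D1M vs ND and D3M vs D1M, the rat block gave 0, the count without it.

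Over all transcripts, the count between D3M and ND ileum was 1632, and 3007 without the flow cell term, 1024 with K4040 ileum left out, 776 with P762 ileum left out as well, 730 with fibroblast and smooth muscle scores, 561 without flow cell 2, 196 with the epithelial score and 185 with the 2 groups alone. Depth limits *Igf1r* most, at 8 to 47 counts per library. No D3M library was in ileum flow cell 2 or colon flow cell 1, and age and diabetes cannot be told apart against ND rats.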
